A study of Homo sapiens with 6 samples.

Results

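The genes described here encode the subunits of oxidative phosphorylation, and were measured in HCC1937 cells after docetaxel and in control cells. They were chosen by gene symbol, with earlier results of these data known. The rule took NDUFA, NDUFB, NDUFC, NDUFS and NDUFV symbols that go on with a number, and SDHA to SDHD. It took symbols that begin with UQCR, COX4 to COX8 or ATP5, and the protein-coding genes of the mitochondrial genome. Symbols with a pseudogene number or, outside the mitochondrial genome, a hyphen were dropped, which removed 181 of 282 matches. The count matrix has 78932 rows, of which 101 were members, 88 from nuclear chromosomes and 13 from the mitochondrial genome. The symbol rule also takes in ATP5IF1, an inhibitor of the ATP synthase, COX7A2L, a supercomplex factor, and COX8BP, a pseudogene symbol without a number, and it leaves out the subunits CYC1 and NDUFAB1, which are given with the other lists below. NDUFA4 and its paralogue NDUFA4L2, named for complex I, were counted with complex IV, where NDUFA4 protein is found.

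HCC1937 is a human breast cancer cell line with a BRCA1 mutation that lacks estrogen and progesterone receptors and HER2 amplification. In 3 libraries (Doc) the cells had received 8 nM docetaxel, a taxane that stabilises microtubules, for 24 h, and the 3 others (con) are labelled as controls, with no vehicle named. All 6 libraries were made from poly(A)-enriched RNA of this 1 line, and the replicates are labelled biological, with nothing on whether they were separate cultures, and all p-values rest on the spread among these libraries, which may be technical. Series and labels link the comparison to estrogen receptor and arachidonic acid genes, not to respiration.

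Oxidative phosphorylation is carried out in the inner mitochondrial membrane. Complexes I and II pass electrons from NADH and succinate to ubiquinone, complex III passes them on to cytochrome c and complex IV to oxygen. Complexes I, III and IV pump protons, and complex V, the ATP synthase, lets them flow back to make ATP. Complex II is encoded by nuclear genes alone, while the other complexes combine nuclear subunits with a core made in the mitochondrion, so that their assembly draws on both genomes. Tumour cell lines commonly keep this machinery beside a high rate of glycolysis.

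Depth ranged from 38622062 to 41675186 counts per library, and 18040 genes, holding 99.9% of all counts, could be tested. With docetaxel 1649 genes were called higher and 1410 lower by edgeR's quasi-likelihood test at an adjusted p under 0.05, against 1096 and 1866 when libraries were scaled by their totals alone. The keratins KRT8, KRT18 and KRT7 were high, at 1965, 666 and 476 CPM (counts scaled to 1e6 per library) over all 6 libraries. KRT19, KRT5 and KRT14 stood at 0.11, 0.039 and 0.13 CPM. EPCAM and CDH1, adhesion genes of epithelial cells, stood at 0.067 and 0.69 CPM. The name of the line rests on the labels, and the part of the counting in these low values was not tested. Of 12 epithelial and breast markers 7 were under 1 CPM, as were 4 of 4 leukocyte and 2 of 3 endothelial markers. Of 7 mesenchymal or fibroblast markers 3 were under 1 CPM, while VIM stood at 362 CPM and COL1A1 at 140 CPM. In the nuclear members the docetaxel libraries lay apart: the median log2 deviation from the other docetaxel libraries was -0.098 in replicate 1, 0.11 in replicate 2 and -0.0077 in replicate 3, while in the control libraries it lay between -0.046 and 0.038. Counts of calls without replicate 1 and without replicate 2 are given below.

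The mitochondrially encoded subunits held most of the members' counts. Of these 13, 0 passed the test in either direction, beside 9.14% called higher and 7.82% lower among all tested genes. The 13 together took 10.5%, 10.2% and 10.5% of all counts in docetaxel replicates 1 to 3, against 10.4%, 10.7% and 11% in control replicates 1 to 3. The means were 10.4 ± 0.2% with docetaxel and 10.7 ± 0.3% in control (SD, n = 3 each), and the groups overlapped. The nuclear subunits took 1.52%, 1.68% and 1.59% of counts in the docetaxel libraries and 1.59%, 1.54% and 1.56% in the control libraries. The ratio of mitochondrial to nuclear subunit counts was 6.54 ± 0.43 with docetaxel and 6.87 ± 0.26 in control, again with overlap. In RNA from many cells a change in the number of cells of a kind and a change in RNA per cell cannot be told apart.

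On a per-length scale, as TPM (transcript counts per length, scaled to a common total, from the gene lengths in the count table), the order among mitochondrial genes was led by the 3 core subunits of complex IV. MT-CO2, which receives electrons from cytochrome c, had 51348 ± 386 TPM with docetaxel and 51859 ± 1225 TPM in control. MT-CO3 had 45667 ± 162 TPM with docetaxel and 48278 ± 681 TPM in control. MT-CO1, which holds the oxygen-reducing centre, had 42231 ± 1431 TPM with docetaxel and 44192 ± 792 TPM in control (SD, n = 3 each, as for all means here). MT-CO1 and MT-CO3 did not overlap between groups in TPM, a scale that depends on every other gene in the library. MT-ND4 came next in this order, with values that overlapped those of MT-CO1. In CPM scaled by TMM (trimmed mean of M values, edgeR's correction for library composition), MT-CO3 had 12761, 13345 and 12956 in docetaxel replicates and 13185, 13204 and 13753 in control replicates, which overlapped, as did those of MT-CO1.

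**Figure D1:**
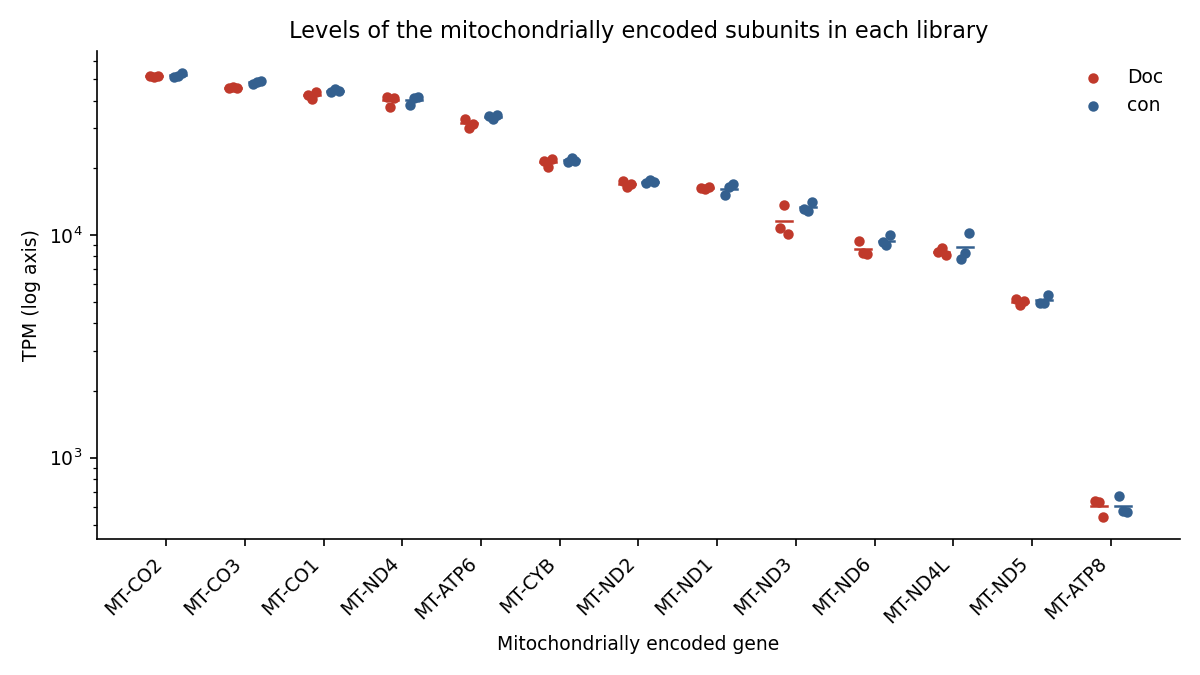
Level of each mitochondrially encoded subunit gene in TPM on a log axis, with 1 point per library, docetaxel (Doc) left of control (con), and short lines at the group means. The 13 genes span from MT-CO2 at 51348 TPM with docetaxel and 51859 TPM in control to MT-ATP8 at 605 and 607 TPM, and within each gene the groups lie close together beside that range.

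Complex I has 7 mitochondrial subunits, MT-ND1 to MT-ND6 with MT-ND4L, all in its proton-pumping membrane arm. MT-ND4 was the most abundant of them, at 40097 ± 2256 TPM with docetaxel and 40369 ± 1796 TPM in control, and MT-ND5 the least, at 5014 ± 178 TPM with docetaxel and 5085 ± 241 TPM in control. MT-ND1, MT-ND2, MT-ND4 and MT-ND5 had log2 fold changes of 0.05, 0.01, 0.03 and 0.02. For MT-ND4L the log2 fold change was -0.02 with a wider 95% confidence interval, from -0.38 to 0.33, and its highest value, 1091 CPM, was in control replicate 3.

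MT-ND3 had the largest spread. It had 1332, 1745 and 1271 CPM in docetaxel replicates 1 to 3, against 1603, 1533 and 1735 CPM in control replicates 1 to 3. Docetaxel replicate 2 was above every control library and the other docetaxel libraries were below all of them. Its log2 fold change was -0.16 (95% confidence interval -0.57 to 0.24, edgeR adjusted p = 0.587). Without docetaxel replicate 2 it was -0.33 with an edgeR adjusted p = 1.33e-05.

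MT-ND6 is the 1 member read from the other strand of the mitochondrial genome (positions 14149 to 14673, minus strand), and its mRNA is known to carry little or no poly(A) tail. It had 1765, 1614 and 1558 CPM in docetaxel replicates and 1725, 1635 and 1877 CPM in control replicates, and its log2 fold change of -0.08 did not pass (edgeR adjusted p = 0.308), although it did without docetaxel replicate 1 (edgeR adjusted p = 0.0106). The strand setting of the counting is not given in the sources used here, so reads from either strand at this place cannot be told apart. How the poly(A) selection bears on mitochondrial levels was not tested.

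MT-CYB, cytochrome b of complex III, had 8767 ± 262 CPM with docetaxel and 8693 ± 116 CPM in control, a log2 fold change of 0.01. For MT-CO1 and MT-CO2 the log2 fold changes were -0.02 and 0.03, and for MT-CO3 -0.04. Among all 13 mitochondrial genes 12 were within 10% of the control level, the median log2 fold change was 0.01, beside 0.01 for all tested genes, and 0 had an unadjusted p under 0.05. DESeq2 and limma-voom also called 0 of the 13. Over all tested genes DESeq2 called 1627 higher and 1677 lower, and limma-voom 1653 and 1428. With scaling by library totals alone, 2 were called lower, MT-ATP6 and MT-CO3.

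Complex V has MT-ATP6, its proton channel subunit, and MT-ATP8, a small membrane subunit, which are read from overlapping frames of 1 RNA. MT-ATP6 had 7822 ± 232 CPM with docetaxel and 8137 ± 293 CPM in control, a log2 fold change of -0.06 (edgeR adjusted p = 0.276). Without docetaxel replicate 1 MT-ATP6 was called lower (edgeR adjusted p = 0.0246). MT-ATP8 had 47.2, 48.8 and 40.6 CPM in docetaxel replicates and 49.2, 41.4 and 42.6 CPM in control replicates, a log2 fold change of 0.04. Per length MT-ATP6 stood at 31602 TPM with docetaxel and 33792 TPM in control, against 605 and 607 TPM for MT-ATP8. The reference sequence of MT-ATP8 (GENCODE release 29, GRCh38, plus strand) is shown because part of it also belongs to the neighbouring gene. Of its 207 bases the last 46, in capitals, are the first 46 of MT-ATP6, at positions 8527 to 8572.
MT-ATP8, chrM:8366-8572: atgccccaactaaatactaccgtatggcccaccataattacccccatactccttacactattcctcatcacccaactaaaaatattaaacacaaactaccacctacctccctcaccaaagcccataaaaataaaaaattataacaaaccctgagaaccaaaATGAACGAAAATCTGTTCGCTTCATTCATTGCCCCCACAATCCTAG
How reads that fall in 2 genes were counted is not given in the sources used here, and its part in the low count of MT-ATP8 was not tested.

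Among the nuclear subunits 81 of 88 had enough reads to test. With docetaxel 11 rose and 2 fell, or 13.6% and 2.47%, where 9.14% of all tested genes rose and 7.82% fell. The changes were small: 63 members were within 10% of the control level and 74 within 1.2-fold. Their median log2 fold change was 0.05, beside 0.01 for all tested genes. Of the 81 members 16 had docetaxel values all above the control values and 4 all below, beside 17% and 15% of all tested genes. When each library's trend with GC content and gene length, fitted over all tested genes, was taken out by offsets, 5 members were called higher and 1 lower, beside 2.27% and 1.77% of all tested genes, and of the 13 calls made without offsets only that of ATP5MC2 remained. With the principal transcript's length in place of the deposited gene length, 3 were higher and 2 lower, and the call that remained was that of NDUFA5. Other values with offsets given here use the deposited length. The other members called higher with offsets were SDHC, COX6A1, NDUFA4 and ATP5MG, and the 1 called lower was ATP5PF, a peripheral stalk subunit of complex V, at -0.14 on the log2 scale with offsets (edgeR adjusted p = 0.0289), against -0.06 without.

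**Figure D2:**
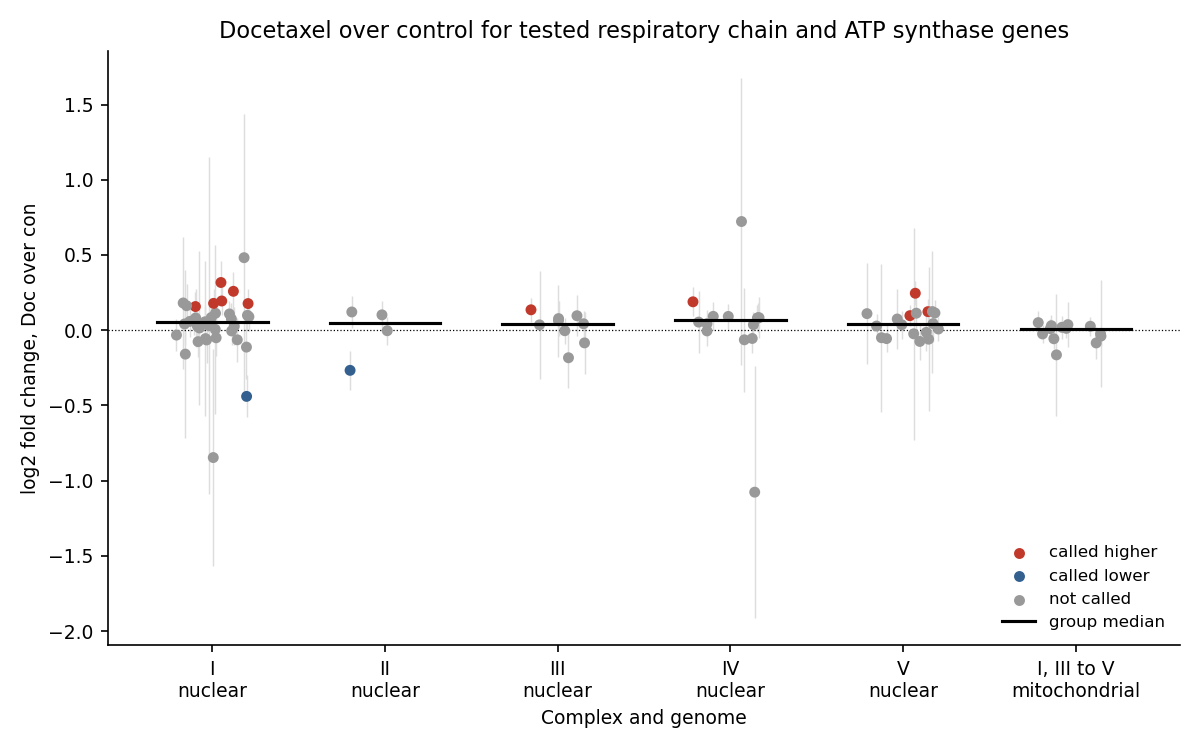
Log2 fold change, docetaxel over control, of the 94 tested members by complex and genome, with 95% confidence intervals in grey. Points are genes, red called higher and blue called lower at an edgeR adjusted p under 0.05, and black lines are group medians, which lie between 0.01 for the mitochondrial genes and 0.07 for complex IV.

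Complex I had 36 nuclear members, all tested. Of these 6 rose and 1 fell, or 16.7% and 2.78%, beside 9.14% and 7.82% of all tested genes. Those that rose include 3 core subunits of the arm that carries the electrons: NDUFV1, which binds NADH and its flavin, and NDUFS7 and NDUFS8, which hold iron-sulfur clusters close to the ubiquinone site. NDUFV1 (chromosome 11, 67605653 to 67612554) had 235, 256 and 243 CPM in docetaxel replicates 1 to 3, against 225, 203 and 213 CPM in control replicates 1 to 3. All docetaxel libraries were above all control libraries. The fold change was 1.14, or 0.19 ± 0.04 on the log2 scale (SE, edgeR adjusted p = 0.00232), and 0.04 with offsets (edgeR adjusted p = 0.638).

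NDUFS7 (chromosome 19, 1383527 to 1395589) had 54.0, 49.1 and 47.0 CPM in docetaxel replicates and 42.2, 40.3 and 43.0 CPM in control replicates. It rose 1.196-fold (edgeR adjusted p = 0.00458) without overlap between groups. Without docetaxel replicate 1 the call ended (edgeR adjusted p = 0.0659), as it did with offsets (edgeR adjusted p = 0.425), and 49.1% of its exon bases lie in exons of other genes too. NDUFA11 (chromosome 19, 5891276 to 5904006), an accessory subunit of the membrane arm, had 49.6, 46.4 and 42.9 CPM in docetaxel replicates and 39.6, 34.2 and 37.8 CPM in control replicates. At 1.25-fold (log2 0.32 ± 0.07, SE, edgeR adjusted p = 0.00153) it had the largest rise among the called members, and with offsets its log2 fold change was 0.13 (edgeR adjusted p = 0.268).

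The other complex I members that rose were NDUFA8, NDUFS8 and NDUFB7, by 1.12- to 1.13-fold. NDUFA8 and NDUFB7 are accessory subunits. Their calls and that of NDUFS8 were each lost without docetaxel replicate 2, with edgeR adjusted p values of 0.0841, 0.178 and 0.112 for NDUFA8, NDUFB7 and NDUFS8. Without control replicate 2 those of NDUFS8 and NDUFB7 were lost as well (edgeR adjusted p of 0.0573 and 0.133), and that of NDUFB7 also with control replicate 3 left out (0.0894) or docetaxel replicate 3 (0.151). With offsets none of these 3 was called, and the sign of NDUFB7 turned, to -0.02.

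NDUFA5 (chromosome 7, 123536997 to 123558255), an accessory subunit of the peripheral arm, was the member that fell most among those called. It had 43.3, 39.1 and 38.5 CPM in docetaxel replicates, against 55.9, 59.1 and 49.0 CPM in control replicates. Every docetaxel library was below every control library. The fold change was 0.737, or -0.44 ± 0.07 on the log2 scale (SE, edgeR adjusted p = 5.24e-05), and it stayed called without each library in turn. With offsets it was -0.16 (edgeR adjusted p = 0.128), and with offsets on the principal transcript's length it was called lower, at -0.21 (edgeR adjusted p = 0.0301).

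NDUFS1, the largest core subunit and an iron-sulfur protein, had 80.2 ± 3.7 CPM with docetaxel and 82.0 ± 1.9 CPM in control and did not pass (edgeR adjusted p = 0.755). NDUFS5, an accessory subunit, had the highest per-length level of the nuclear complex I members, with a mean of 1839 TPM over all 6 libraries. NDUFV2, a core subunit with an iron-sulfur cluster, had the lowest, with 20, 10 and 18 reads in docetaxel replicates and 23, 17 and 10 reads in control replicates. NDUFA7, an accessory subunit, was as scarce, with 26, 22 and 27 reads in docetaxel replicates and 26, 16 and 15 reads in control replicates. NDUFV2 and NDUFA7 share 28.4% and 33.5% of their exon bases with other genes, and the part of the counting in these low values was not tested. NDUFB5, an accessory subunit, had 26.7, 21.0 and 20.4 CPM in docetaxel replicates and 34.4, 54.8 and 33.3 CPM in control replicates. The groups did not overlap, but control replicate 2 lay far above the rest and edgeR's adjusted p was 0.124. Without that library NDUFB5 was called lower (edgeR adjusted p = 0.000814). NDUFA7 and NDUFB5 were chosen after their values were seen. Per-length levels of nuclear members, here and below, rest on the gene lengths in the count table. For NDUFA10 this length was 19359 bases, beside 1065 coding bases, and for NDUFS5 548 bases, beside 318 coding bases. Ranks per length therefore depend on the annotation, and ranks with other lengths were not tested.

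Complex II has 4 subunits, of which 0 rose and 1 fell, or 0% and 25%, beside 9.14% and 7.82% of all tested genes. SDHD, 1 of the 2 membrane anchors (chromosome 11, 112086773 to 112120013), fell. It had 50.1, 45.9 and 42.4 CPM in docetaxel replicates, against 55.2, 58.3 and 53.0 CPM in control replicates. The groups did not overlap, the fold change was 0.831 and the log2 fold change -0.27 ± 0.06 (SE, edgeR adjusted p = 0.00349). The call was lost without docetaxel replicate 3 (edgeR adjusted p = 0.0603) and with offsets (log2 fold change -0.15, edgeR adjusted p = 0.149).

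SDHC, the other anchor, had 117 ± 4 CPM with docetaxel and 109 ± 2 CPM in control and did not pass (log2 fold change 0.10, edgeR adjusted p = 0.141), although it was called higher with offsets (edgeR adjusted p = 0.00858). SDHA, the flavoprotein that oxidises succinate, had 81.8 ± 4.2 CPM with docetaxel and 75.3 ± 1.4 CPM in control (edgeR adjusted p = 0.113). SDHB, the iron-sulfur subunit, had 119 ± 4 CPM with docetaxel and 120 ± 2 CPM in control. Per length SDHC was the highest of the 4, at 161 TPM over all libraries, and SDHA the lowest, at 25.2 TPM.

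In complex III 1 of 9 nuclear members rose and 0 fell, or 11.1% and 0%, beside 9.14% and 7.82% of all tested genes. UQCRC1, a core protein of the matrix side (chromosome 3, 48599002 to 48610976), had 465, 493 and 490 CPM in docetaxel replicates and 446, 423 and 450 CPM in control replicates. It rose by 0.14 ± 0.04 on the log2 scale without overlap (SE, edgeR adjusted p = 0.0151). The call was lost without docetaxel replicate 2 or 3 or control replicate 2, with edgeR adjusted p values of 0.0788, 0.101 and 0.0807, and the sign turned with offsets, to -0.01. UQCRC2, its partner, had 143 ± 3 CPM with docetaxel and 143 ± 2 CPM in control. UQCRFS1, the Rieske iron-sulfur protein, had 196 ± 4 CPM with docetaxel and 190 ± 5 CPM in control, and neither passed. UQCRH, the hinge protein, was the highest per length at 1064 TPM over all libraries, and UQCR10 the lowest at 13.6 TPM.

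In complex IV 14 of 20 nuclear members could be tested. Of these 1 rose and 0 fell, or 7.14% and 0%, beside 9.14% and 7.82% of all tested genes. COX8A, the general isoform of subunit 8 (chromosome 11, 63974607 to 63976543), had 132, 131 and 141 CPM in docetaxel replicates, against 119, 112 and 123 CPM in control replicates. It rose 1.14-fold without overlap (log2 0.19 ± 0.05, SE, edgeR adjusted p = 0.00498), and the call was lost without docetaxel replicate 3 (edgeR adjusted p = 0.0741) and with offsets (edgeR adjusted p = 0.448). Its exons share 34.5% of their bases with other genes.

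Complex IV has several pairs of isoforms, and these cells used the general ones. COX4I1 had 678 ± 42 CPM with docetaxel and 636 ± 15 CPM in control, while COX4I2, an isoform raised by low oxygen, had between 0 and 3 reads per library. COX6A1 had 128 ± 8 CPM with docetaxel and 121 ± 1 CPM in control, while COX6A2, the heart and muscle isoform, had 2 reads in each of 2 libraries and 0 in the others. COX7A2 had 274 ± 29 CPM with docetaxel and 259 ± 12 CPM in control, while COX7A1, the muscle form, had 0 to 6 reads. COX6B1 had 268 ± 16 CPM with docetaxel and 254 ± 3 CPM in control.

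COX6B2, the testis form of COX6B1 and the lowest tested member of complex IV per length, had 28, 19 and 32 reads in docetaxel replicates and 17 in each control replicate (log2 fold change 0.72, 95% confidence interval -0.23 to 1.68, edgeR adjusted p = 0.340). COX8C, the testis form of subunit 8, had 0, 2 and 1 reads in docetaxel replicates and 0 in each control replicate. COX7B2 and COX8BP had 0 reads in every library, which allows up to 0.0766 to 0.0777 CPM per docetaxel library and 0.0720 to 0.0769 CPM per control library at 3 counts, for counting error only. ATP5MGL, a scarce relative of the complex V gene ATP5MG, had 0 to 3 reads, and with COX4I2, COX6A2, COX7A1, COX8C, COX7B2 and COX8BP makes up the 7 untested members.

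NDUFA4 had 265 ± 13 CPM with docetaxel and 258 ± 7 CPM in control, and was called higher with offsets only (edgeR adjusted p = 0.0216), as was COX6A1 (edgeR adjusted p = 0.00565). NDUFA4L2, a paralogue known as a target of hypoxia-inducible factor, had 24, 49 and 10 reads in docetaxel replicates and 70, 75 and 43 reads in control replicates, with overlap. Its log2 fold change of -1.08 (95% confidence interval -1.92 to -0.24) did not pass (edgeR adjusted p = 0.0710), but did without docetaxel replicate 2 (edgeR adjusted p = 0.00735), without the filter on low counts (edgeR adjusted p = 0.0496) and with limma-voom (adjusted p = 0.0343). COX7A2L had 92.6 ± 2.9 CPM with docetaxel and 92.9 ± 2.6 CPM in control. COX7C was the highest nuclear member of complex IV per length, with 750 TPM over all libraries.

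In complex V 18 of 19 nuclear members were tested. Of these 3 rose and 0 fell, or 16.7% and 0%, beside 9.14% and 7.82% of all tested genes. The 3 were ATP5F1D, the delta subunit of the rotor stalk, ATP5F1B, the catalytic beta subunit, and ATP5MC2, which encodes the c subunit of the membrane ring. ATP5F1D (chromosome 19, 1241746 to 1244826) had 461, 479 and 478 CPM in docetaxel replicates, against 410, 380 and 406 CPM in control replicates. All docetaxel libraries lay above all control libraries. It rose 1.19-fold (log2 0.25 ± 0.04, SE, edgeR adjusted p = 8.39e-05) and stayed called without each library in turn, while with offsets its log2 fold change was 0.05 (edgeR adjusted p = 0.528).

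ATP5F1B (chromosome 12, 56638175 to 56646068) had the highest per-length level of any nuclear member, at 2396 TPM over all libraries. It had 1942, 2003 and 2018 CPM in docetaxel replicates and 1862, 1846 and 1869 CPM in control replicates, which did not overlap. The fold change of 1.07 passed narrowly (edgeR adjusted p = 0.0461) and the call was lost without any 1 of the 6 libraries, with an edgeR adjusted p of 0.0530 to 0.205. ATP5F1A, the alpha subunit that alternates with beta in the catalytic head, had 625 ± 21 CPM with docetaxel and 613 ± 7 CPM in control and did not pass.

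The genes ATP5MC1, ATP5MC2 and ATP5MC3 encode the same mature c subunit. ATP5MC2 (chromosome 12, 53632726 to 53677408) had 464, 484 and 510 CPM in docetaxel replicates and 447, 431 and 460 CPM in control replicates. It rose 1.09-fold (edgeR adjusted p = 0.0329), and its log2 fold change was 0.12 both without and with offsets, where edgeR's adjusted p was 0.0336. With offsets on the principal transcript's length it was 0.10 and not called (edgeR adjusted p = 0.0669). Leaving out control replicate 1 ended the call (edgeR adjusted p = 0.10), as did leaving out control replicate 2 (0.142), docetaxel replicate 2 (0.0757) or docetaxel replicate 3 (0.270). ATP5MC1 had 321 ± 10 CPM with docetaxel and 296 ± 11 CPM in control, without overlap, at an edgeR adjusted p of 0.0510. ATP5MC3 had 387 ± 42 CPM with docetaxel and 376 ± 5 CPM in control. ATP5IF1, the inhibitor, had 60.5 ± 1.3 CPM with docetaxel and 56.0 ± 4.7 CPM in control (edgeR adjusted p = 0.220), and ATP5MG, a membrane subunit, was the lowest tested member of complex V per length, at 15.6 TPM.

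**Figure D3:**
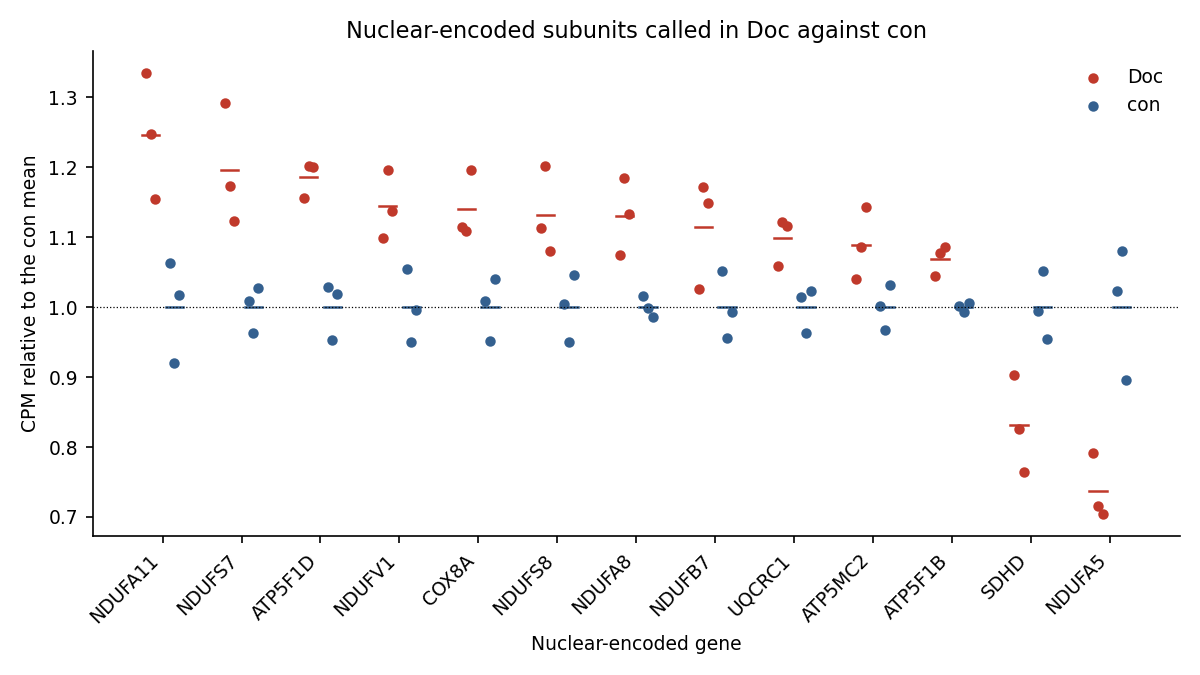
CPM of the 13 called nuclear subunits in each library, divided by the mean of the control libraries, docetaxel (Doc) left of control (con), with short lines at the group means. In 12 of the 13 genes no docetaxel point overlaps the control points, NDUFB7 being the exception. The genes were picked by their calls on these same 6 libraries, so this separation adds nothing to the calls. The group means run from 1.25-fold for NDUFA11 to 0.737-fold for NDUFA5.

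Nuclear genes of the respiratory chain are known targets of the factors NRF1, GABP of the ETS family, and YY1, so RefSeq promoters (GRCh38.p14, 250 bases before to 50 after the first start listed) were searched for short cores of their motifs on both strands. The cores were GCGCATGC for NRF1, CCGGAAG for ETS factors and AAGATGGCG for YY1, and cores of different factors do not overlap in the promoters shown. The NRF1 and YY1 cores were shortened after the data were seen. A promoter was found for 69 nuclear members. The NRF1 core was in 13 of them, or 18.8%, beside 4.26% of the promoters of 15843 protein-coding genes. The ETS core was in 20, or 28.99%, beside 14.2%, and the YY1 core in 8, or 11.6%, beside 2.74%. Members of both directions held them: of 9 promoters of members that rose 3 had the NRF1 core, and of 2 promoters of members that fell 1 did. The promoters of NDUFS7 and NDUFA8, which rose, and SDHD, which fell, are shown because all hold the NRF1 core, with matches in capitals.
NDUFS7, chr19:1383657-1383956, plus strand: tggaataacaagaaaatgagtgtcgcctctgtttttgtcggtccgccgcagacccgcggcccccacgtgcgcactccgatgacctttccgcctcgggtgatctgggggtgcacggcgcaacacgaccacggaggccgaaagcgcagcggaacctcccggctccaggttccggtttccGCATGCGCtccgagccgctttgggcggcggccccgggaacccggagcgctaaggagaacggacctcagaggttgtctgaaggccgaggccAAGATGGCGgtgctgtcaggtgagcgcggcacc
NDUFA8, chr9:122159730-122160029, minus strand: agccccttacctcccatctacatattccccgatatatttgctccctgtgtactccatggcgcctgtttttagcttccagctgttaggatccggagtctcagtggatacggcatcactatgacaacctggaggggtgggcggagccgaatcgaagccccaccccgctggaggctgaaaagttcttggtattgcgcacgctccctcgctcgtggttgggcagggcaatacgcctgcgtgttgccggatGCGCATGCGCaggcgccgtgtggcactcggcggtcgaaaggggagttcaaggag
SDHD, chr11:112086623-112086922, plus strand: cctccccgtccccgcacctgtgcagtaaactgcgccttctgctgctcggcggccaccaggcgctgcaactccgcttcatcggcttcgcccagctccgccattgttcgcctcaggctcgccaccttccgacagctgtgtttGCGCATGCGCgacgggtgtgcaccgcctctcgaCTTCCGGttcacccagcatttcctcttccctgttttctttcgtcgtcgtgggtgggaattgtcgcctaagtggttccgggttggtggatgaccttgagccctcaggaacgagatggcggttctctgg
In NDUFA8 and SDHD the NRF1 core is present on both strands, as overlapping matches. SDHD also holds the ETS core and NDUFS7 the YY1 core. A match describes the letters and was not tested as a binding site.

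The direction of change in the nuclear members went with the GC content of their transcripts. Those that rose had a median GC content of 59.4% (48.3 to 65.0%), those that fell 35.0% and 41.0%, and the 68 not called a median of 47.0%. Among 19 members above 55% GC the median log2 fold change was 0.14, with 8 called higher and 0 lower. Among 33 members between 45% and 55% it was 0.06, with 3 higher and 0 lower, and among 29 members under 45% it was -0.0046, with 0 higher and 2 lower. All tested genes in these bands had medians of 0.16, 0.02 and -0.14, in the same order. Calls among all tested genes were not counted by band. Whether the members' calls differ from those of other genes of like GC content was therefore not tested. Across the 81 members log2 fold change and GC content had a Spearman's rho of 0.53 and a Pearson's r of 0.27, and across 16421 tested genes 0.54 and 0.41. With offsets the members' relation had the opposite sign, with a rho of -0.37 and an r of -0.25, while over all tested genes rho was -0.0031 and r 0.0045. The offsets thus took out the trend of all genes and left one of the other sign in the members. These relations are across genes, which share the same 6 libraries. The mitochondrial genes had GC contents of 39.6% to 47.7%. The part of GC content in the calls, and whether it acted in the cells or in library preparation, was not tested.

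**Figure D4:**
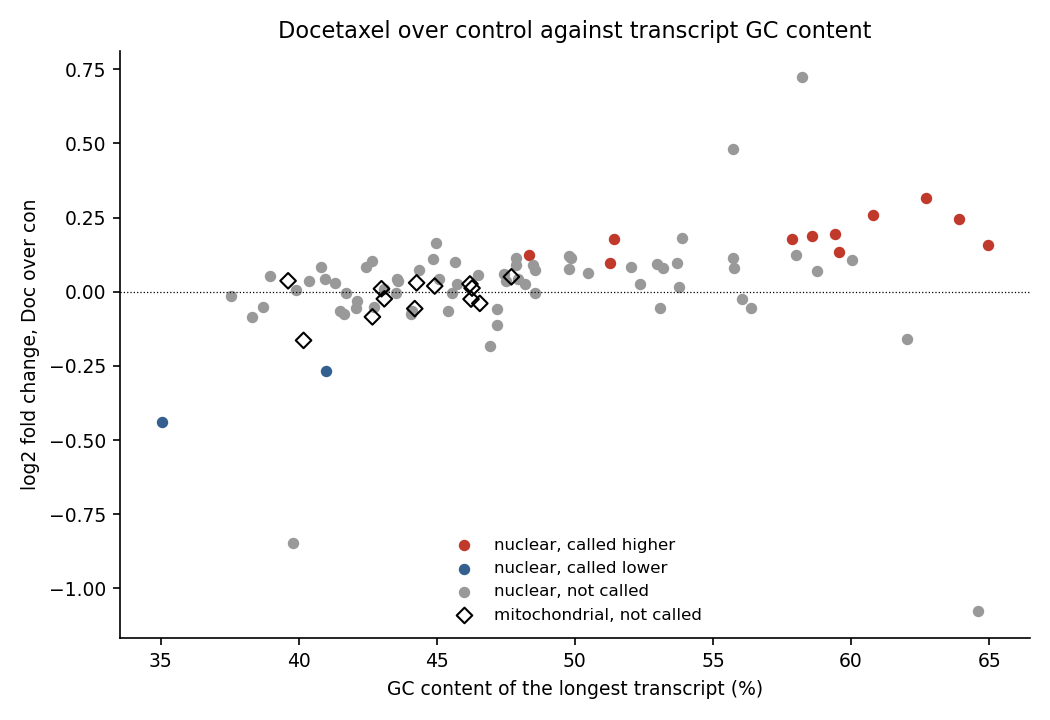
Log2 fold change, docetaxel over control, of the tested members against the GC content of the longest transcript, with nuclear genes as filled points coloured by call and mitochondrial genes as open diamonds. The genes called higher lie at 48.3% GC and above and the 2 called lower at 41.0% and below.

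Docetaxel replicate 2 was the highest of the 6 libraries in 50 of 81 nuclear members, or 61.7%, beside 20.7% of all tested genes. In 14 members, or 17.3%, it was above every control library while docetaxel replicates 1 and 3 were below every control library, a pattern found in 1.67% of all tested genes. These 14 were small accessory or membrane subunits for the most part: NDUFA1, NDUFA3, NDUFB1, NDUFB3, NDUFC1, NDUFS4, UQCRB, UQCRHL, COX7B, ATP5F1E, ATP5MC3, ATP5ME, ATP5MK and ATP5PF. MT-ND3 was the 1 mitochondrial gene with it. They were chosen after their values were seen.

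ATP5ME, the e subunit of complex V, had 12.9, 25.0 and 15.5 CPM in docetaxel replicates 1 to 3, against 18.4, 18.2 and 17.6 CPM in control replicates 1 to 3. ATP5F1E, the epsilon subunit of the rotor stalk, had 233, 344 and 251 CPM in docetaxel replicates and 307, 261 and 290 CPM in control replicates. COX7B, a small subunit of complex IV, had 177, 239 and 189 CPM in docetaxel replicates and 217, 201 and 214 CPM in control replicates. In each of these docetaxel replicate 2 lay above all control values and docetaxel replicates 1 and 3 below them. Members with shorter coding sequences were higher in docetaxel replicate 2 relative to the other docetaxel libraries (Spearman's rho = -0.42 over 81 members), beside a rho of -0.12 over 12785 genes.

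Without docetaxel replicate 2, 5 nuclear members were called higher and 12 lower, beside 5.78% and 5.14% of 18831 tested genes. The 5 were NDUFV1, NDUFS7, NDUFA11, COX8A and ATP5F1D, all called with it too. Of the 12, NDUFA5 and SDHD were called with it, and the rest were NDUFA1, NDUFA3, NDUFC1, NDUFA4L2, UQCRB, UQCRHL, COX7B, ATP5F1E, ATP5ME and ATP5MK. The median log2 fold change of the nuclear members was then 0.00032, beside 0.05 with all libraries. The summed CPM of the nuclear members was 15212, 17198 and 16128 in docetaxel replicates, against 15740, 15057 and 15472 in control replicates. Without docetaxel replicate 1 the counts moved the other way: 17 nuclear members were called higher and 2 lower, beside 7.18% and 9.76% of 18856 tested genes, and the median log2 fold change was 0.08. That library was the lowest of the 6 in 28 nuclear members, or 34.6%, beside 15.1% of all tested genes. What set docetaxel replicates 1 and 2 apart was not tested.

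**Figure D5:**
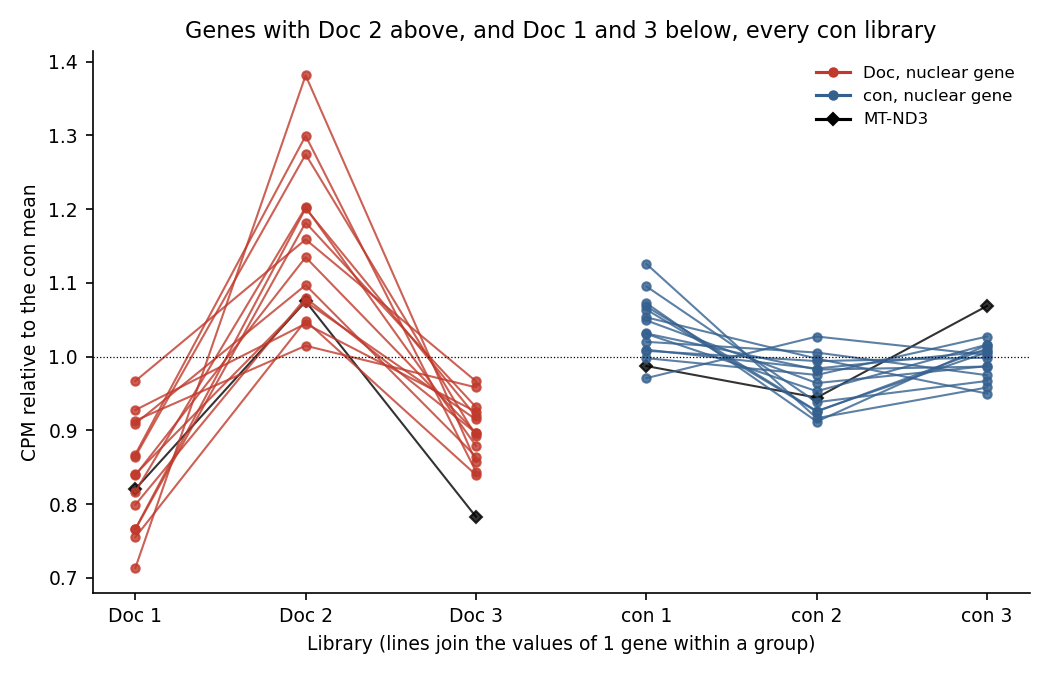
CPM divided by the control mean in each library for the 14 nuclear genes and MT-ND3 in which docetaxel replicate 2 (Doc 2) is above, and docetaxel replicates 1 and 3 below, every control library. Lines join the values of 1 gene within a group, and ATP5ME, at 12.9, 25.0 and 15.5 CPM with docetaxel, makes the widest swing.

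The genes that serve these complexes were read from 11 lists with 123 genes, of which 122 were tested, 12 rose and 11 fell, or 9.84% and 9.02%, near the 9.14% and 7.82% of all tested genes. With offsets 5 were higher and 1 lower, or 4.10% and 0.820%, beside 2.27% and 1.77% of all tested genes. The 5 were ATPAF1, CMC1, SSBP1, SLC25A3 and SLC25A4, and the 1 lower was COX11, alone of the 6 in being called without offsets too. In the list of subunits and carriers that the symbol rule leaves out, CYC1, cytochrome c1 of complex III, had 834 ± 13 CPM with docetaxel and 745 ± 38 CPM in control and rose 1.12-fold (edgeR adjusted p = 0.00346), while its sign turned with offsets, to -0.04. CYCS, the cytochrome c that carries electrons to complex IV, had 188 ± 15 CPM with docetaxel and 219 ± 11 CPM in control and fell to 0.856-fold (edgeR adjusted p = 0.00251), which was not called with offsets (edgeR adjusted p = 0.176). DMAC2L had 3.56 ± 0.56 CPM with docetaxel and 4.29 ± 0.42 CPM in control and did not pass, and the list's other gene, NDUFAB1, was not called either.

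Of 17 assembly factors of complex I 3 rose and 0 fell, or 17.6% and 0%, beside 9.14% and 7.82% of all tested genes. They were FOXRED1 by 1.16-fold, NDUFAF8 by 1.18-fold and ECSIT by 1.12-fold (edgeR adjusted p of 0.00393, 0.00610 and 0.0284). With offsets the sign of ECSIT turned, to -0.01. Of 22 assembly factors of complex IV 0 rose and 3 fell, or 0% and 13.6%. They were CMC2, COX11, which delivers copper, and COA6, at 0.849-, 0.798- and 0.858-fold (edgeR adjusted p of 0.00146, 0.00152 and 0.0185). COX11 had 35.4 ± 2.9 CPM with docetaxel and 44.4 ± 3.2 CPM in control, and it was also called lower with offsets (log2 fold change -0.29, edgeR adjusted p = 0.00617). Of 6 factors of complex III 1 fell, LYRM7, a chaperone of the Rieske protein, at 0.799-fold (edgeR adjusted p = 0.00775), and TTC19 and BCS1L did not pass. Of 4 factors of complex II and 4 of complex V 0 were called by edgeR, with 1 in each at an unadjusted p under 0.05. These 2 were SDHAF1 and ATPAF1, with log2 fold changes of 0.16 and 0.14 (edgeR adjusted p of 0.152 and 0.0900), and ATPAF1 was called higher with offsets (edgeR adjusted p = 0.0161). Without control replicate 2 the calls of NDUFAF8, ECSIT, COA6 and LYRM7 were lost (edgeR adjusted p of 0.0806, 0.198, 0.117 and 0.108). Those of NDUFAF8 and ECSIT were lost without docetaxel replicate 2 (0.0643 and 0.0900), those of ECSIT, COA6 and LYRM7 without docetaxel replicate 3 (0.168, 0.0950 and 0.102), and that of COA6 without control replicate 3 (0.0887), all as edgeR adjusted p.

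Among 15 genes of mitochondrial transcription and replication 1 rose and 1 fell, or 6.67% each, beside 9.14% and 7.82% of all tested genes. TFAM, which packages mitochondrial DNA and starts its transcription, had 32.7 ± 4.3 CPM with docetaxel and 43.5 ± 1.4 CPM in control and fell to 0.752-fold (log2 -0.41 ± 0.08, SE, edgeR adjusted p = 0.000302). It stayed called without each library in turn, and with offsets it was -0.22 (edgeR adjusted p = 0.0520). POLRMT, the mitochondrial RNA polymerase, had 205 ± 7 CPM with docetaxel and 180 ± 10 CPM in control and rose 1.14-fold (edgeR adjusted p = 0.00289), with the sign turned by offsets, to -0.02. TOP1MT did not pass. Among 19 genes of mitochondrial RNA processing 2 rose and 1 fell, or 10.5% and 5.26%, beside 9.14% and 7.82% of all tested genes. FASTK rose 1.19-fold and HSD17B10, a subunit of mitochondrial RNase P, 1.14-fold (edgeR adjusted p of 0.000161 and 0.0140). PNPT1, an exoribonuclease, fell to 0.882-fold (edgeR adjusted p = 0.0136). The call of HSD17B10 ended when control replicate 1, control replicate 2 or docetaxel replicate 2 was left out, at 0.0692, 0.112 and 0.182 as edgeR adjusted p. That of PNPT1 ended when control replicate 2, control replicate 3 or docetaxel replicate 3 was left out, at 0.0957, 0.0531 and 0.0779.

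Among 12 nuclear regulators 1 rose and 2 fell, or 8.33% and 16.7%, beside 9.14% and 7.82% of all tested genes. ESRRA, a nuclear receptor that acts on respiratory genes, rose 1.15-fold (edgeR adjusted p = 0.00473). With offsets its log2 fold change was 0.01 (edgeR adjusted p = 0.936). GABPB1, a subunit of GABP, fell to 0.841-fold and YY1 to 0.914-fold (edgeR adjusted p of 0.0261 and 0.0443). GABPB1 lost its call when control replicate 1, control replicate 2 or docetaxel replicate 2 was left out, at 0.0605, 0.202 and 0.142 as edgeR adjusted p. YY1 lost it when control replicate 2, control replicate 3, docetaxel replicate 2 or docetaxel replicate 3 was left out, at 0.149, 0.187, 0.0910 and 0.156. Of 13 enzymes of the tricarboxylic acid cycle 4 rose and 2 fell, or 30.8% and 15.4%, beside 9.14% and 7.82% of all tested genes. With offsets 0 of these 13 were called in either direction. OGDH rose 1.16-fold and IDH3G 1.15-fold (edgeR adjusted p of 0.000647 and 0.00176). DLD, the lipoamide dehydrogenase, fell to 0.880-fold (edgeR adjusted p = 0.00807), a call that ended when control replicate 2, docetaxel replicate 2 or docetaxel replicate 3 was left out, at 0.0570, 0.0635 and 0.0579. Of 7 carriers of adenine nucleotides and phosphate 6 were tested and 0 called by edgeR, with 1, SLC25A4, at an unadjusted p under 0.05. With offsets SLC25A4 and SLC25A3, the heart-type adenine nucleotide carrier and the phosphate carrier, were called higher (edgeR adjusted p of 0.0364 and 0.00249).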

How the data were processed

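The authors' deposited file holds raw counts for each gene together with gene lengths. It was made with featureCounts 2.0.1 on GRCh38, with quality reports by MultiQC 1.11, per the submitters' processing notes. How reads were aligned, which annotation and strand setting were used, and how multi-mapping or overlapping reads were treated were not given in the sources used here, so counts of overlapping or near-identical genes are uncertain. RNA was poly(A)-enriched, per the labels.

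Columns were matched to samples by library name. Symbols for 61481 of 78932 rows came from a list of Ensembl genes, coordinates and GC content of the longest transcript from GENCODE release 29, and promoters from RefSeq. Genes passing filterByExpr were fitted with edgeR 4.0.16 under R 4.3.3 (TMM, robust glmQLFit, glmQLFTest, two-sided, Benjamini-Hochberg over 18040 genes), and an adjusted p under 0.05 made a call. The biological coefficient of variation common to all genes was 0.0759. CPM are TMM-scaled except where totals or reads are given, and SE and intervals come from the same fit. The procedure was tested on simulated counts with known folds and a dispersion common to all genes. These held no GC trend and no deviating library, so the simulation does not bear on either.

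As alternatives the fit was run with scaling by RLE, by upper quartile, by library size or by TMM without mitochondrial rows, with DESeq2 1.42.0 or limma-voom 3.58.1, without the filter or with at least 1 CPM in 3 libraries, with loess offsets (span 0.5) on GC content and length, with the replicate number as a block, and without each library. Offsets with the principal transcript's length were added after the data were seen. The NRF1 and YY1 cores replaced longer planned ones after the data were seen, and no counts for the longer cores are given.

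Members and lists were chosen with earlier results of these data known. Named were all mitochondrial members, all called nuclear members, the highest and lowest of each complex per length, isoforms and core subunits listed by name, and up to 3 genes of smallest p per list. Also named, after their values were seen, were genes called with offsets and members called without docetaxel replicate 2. Members in which that library lay apart were named too. Libraries of the same group differed beyond sampling noise, so none was counted as a repeated sequencing of another. Separate preparations from a shared culture could differ in this way too, so this does not show separate cultures.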

Additional observations from a re-analysis of the deposited data

How the results depend on the processing

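With GC and length offsets 409 of all tested genes were called higher and 320 lower, against 1649 and 1410 without offsets. These numbers were 285 and 218 with the replicate block added and 385 and 310 with the principal transcript's length. The nuclear subunits called higher were 5, 2 and 3 under these offsets, and the nuclear subunits called lower 1 (ATP5PF), 1 (NDUFA4L2) and 2 (ATP5PF and NDUFA5). The median log2 fold change of mitochondrial subunits was 0.049 with offsets, and 0.051 with offsets and the replicate block. Under offsets, offsets with the replicate block, and offsets with the principal transcript's length, signs turned for CYC1 (-0.042, -0.042 and -0.044), ECSIT (-0.012, -0.011 and -0.025), NDUFB7 (-0.023, -0.024 and -0.026), POLRMT (-0.021, -0.021 and -0.020) and UQCRC1 (-0.0092, -0.0094 and -0.024). ATP5MG was called higher with offsets, at 0.20, and DLD stood at 0.0015 with the principal transcript's length.

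With library size alone, 1096 genes were called higher and 1866 lower, 7 nuclear subunits were higher, 2 mitochondrial subunits were lower, and the median log2 fold change of mitochondrial subunits was -0.028. Leaving out 1 library gave 990 to 1397 genes called higher and 740 to 1841 called lower, with 5 to 17 for nuclear subunits called higher, 1 to 12 for nuclear subunits called lower and 0 to 2 for mitochondrial subunits called lower. NDUFA1 ranged from -0.20 to 0.10 and turned sign without docetaxel replicate 2. The causes were not tested.

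The labels do not say whether the replicate numbers pair the libraries. Same-numbered libraries deviated from their group means with correlations of 0.0080, 0.0070 and 0.016 across genes. Libraries of unlike number had correlations from -0.014 to 0.0060. These small values do not settle whether the libraries were paired. With the number as a block 1283 genes were called higher and 1106 lower, and 8 nuclear subunits higher and 3 lower. NDUFB7, ATP5F1B and ATP5MC2 were not among the 8, and NDUFA4L2 was the third lower. For the 13 called subunits, the 18 alternatives gave 234 values, of which 164 kept direction and call, 64 lost the call and 6 turned sign. For 50 subunits not called they gave 898 values, of which 33 became called, 102 changed sign without a call and 2 changed sign with one. These 50 are not all of the uncalled members. Some were included because they were called with offsets or without docetaxel replicate 2, or had that library apart. The 33 are therefore not a rate for uncalled members. Counts under about 100 reads per library limit NDUFV2, NDUFA7, NDUFA13, COX6B2 and NDUFA4L2, whose intervals are wide.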

Other observations

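Rows outside the members that are named as copies of mitochondrial protein genes also took reads. There were 404 such rows, and together they held 111353, 123917 and 116552 reads in docetaxel replicates 1 to 3 and 121597, 132250 and 131549 reads in control replicates 1 to 3, or 2.92% of what the mitochondrial members held. MTATP6P1, a nuclear copy of a stretch of mitochondrial DNA on chromosome 1, accounted for 92358 to 108091 of these reads per library, and had 2516 ± 133 CPM with docetaxel and 2550 ± 37 CPM in control (SD, n = 3 each). Its log2 fold change was -0.02. MTND2P28 had 278 ± 30 CPM with docetaxel and 312 ± 2 CPM in control and was called lower (log2 fold change -0.17, edgeR adjusted p = 0.0463), while MT-ND2 itself had a log2 fold change of 0.01. The 173 dropped copies of nuclear subunits with a pseudogene number held 812 to 993 reads per library. Reads from such copies and from the mitochondrial genome cannot be told apart by these counts.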
